A study of Homo sapiens with 4 samples.

Results

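The snaR genes, which encode a family of short non-coding RNAs made by RNA polymerase III, were examined on 4 whole-transcript expression arrays of human LS411N-5FU-R cells, a colon carcinoma line derived from metastatic LS411N and resistant to 5-fluorouracil (5-FU). Members were all genes whose symbol in the platform annotation begins with SNAR-, which gave 8 genes (SNAR-B1, SNAR-C1, SNAR-D, SNAR-F, SNAR-G1, SNAR-G2, SNAR-H and SNAR-I) with 14 probe sets, of 14884 genes tested. Control cells (0 nM verticillin A, 2 arrays) and cells given 50 nM verticillin A, an epipolythiodioxopiperazine from fungi (2 arrays), had both been cultured for 3 days. Every array came from the resistant line, so the parental LS411N cells and other doses are not part of the comparison. The labels do not say whether the 2 samples of a group were separate cultures, so the p-values cover the spread between samples alone, and that spread may be technical.

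The snaR RNAs are small, highly structured non-coding RNAs. They are transcribed by RNA polymerase III, the enzyme that also makes transfer RNAs, 5S ribosomal RNA, vault RNAs and the RNA subunits of RNase P and RNase MRP. The genes are repeated copies with very similar sequences, found in humans and their close relatives, and the RNAs are known from testis and from immortalised cell lines. RefSeq (assembly GRCh38.p14) lists 28 snaR genes of 119 to 128 bases, 26 of them on chromosome 19, with SNAR-H alone on chromosome 2 and SNAR-I alone on chromosome 3. The other 20 genes, among them all 14 of the snaR-A subfamily, are not named by the annotation used here and were not analysed under their own names.

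The deposited values are log2 expression values after the authors' GCRMA normalization, with medians over all probe sets of 4.59 to 4.62 on the 4 arrays. No detection calls were used, so a value near these medians may lie at background. Of 13 colon epithelium markers 11 were measured, and EPCAM (mean 11.11 in the control) and KRT18 (10.37) were bright. CDX1 (4.06), CEACAM5 (3.55) and GPA33 (4.44) lay below the array median, and KRT20 (4.61) was level with it. The others (CDX2, VIL1, KRT8, LGR5 and KRT19) had control means from 5.19 to 8.23. Other cell types were covered thinly. Measured were 1 of 4 leukocyte markers (CD14), 1 of 4 fibroblast markers (DCN) and 2 of 3 endothelium markers (VWF and PECAM1). Of 5 placental and germ tissue markers, 2 were measured (DDX4 and DAZL). All of these had single-array values of 3.38 to 4.02.

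The 14 snaR probe sets did not give 14 independent measurements. They held only 10 different sets of 4 values, because 8 of them matched at least 1 other probe set to the last deposited digit on all 4 arrays. Over all named probe sets, 427 of 16098 (2.65%) shared their values with another in this way. SNAR-C1 had 5 probe sets in 2 sets of values, a bright one shared by 2 probe sets and a dimmer one shared by 3. SNAR-B1 had 3 probe sets in 2 sets of values, 1 of which was also carried by 2 probe sets that the annotation leaves unnamed. That set is the brighter one, and it represents SNAR-B1 in the gene-level results below. Values equal in this way cannot be assigned to single gene copies, so a value given for SNAR-B1 or SNAR-C1 may include RNA from other near-identical snaR genes. The remaining 6 genes had 1 probe set each. Probe sequences were not available, so these too may read RNA from other snaR copies. The counts of snaR genes below may therefore not be counts of separate measurements.

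**Figure D1:**
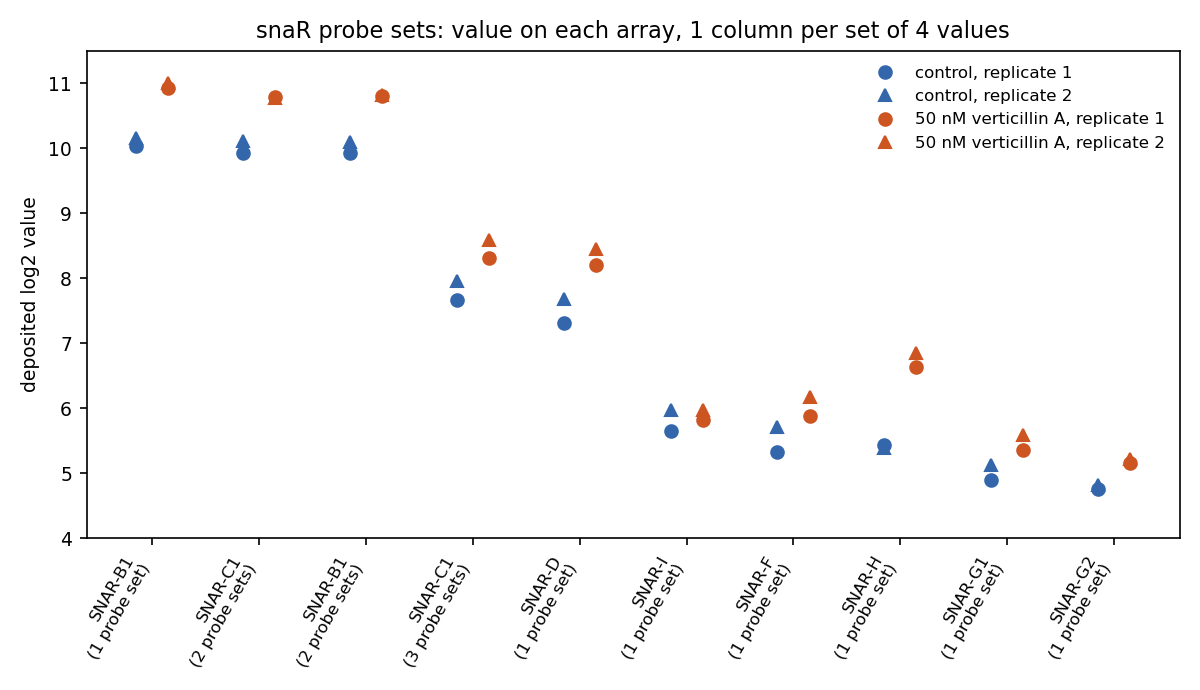
Deposited log2 value (vertical axis, from 4) of each snaR probe set on the 4 arrays, with 1 column for each distinct set of 4 values and the number of probe sets that carry it in brackets; points are single arrays, blue for control and orange for 50 nM verticillin A. The 2 treated arrays lie above both control arrays in every column except that of SNAR-I.

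The snaR genes were higher with verticillin A. Of the 8 genes, 5 rose and 0 fell by limma's test (adjusted p under 0.05 over all 14884 genes), against 8.65% of all genes called in either direction and 3.55% called higher. Over all genes that was 528 higher and 759 lower, or 750 and 668 with the arrays centred on their medians, which left the snaR count at 5. The 5 were SNAR-H, SNAR-B1, SNAR-D, SNAR-C1 and SNAR-G2. The median log2 change over the 8 genes was 0.64, a 1.56-fold higher level, and over all genes tested it was -0.01. Both treated arrays lay above both control arrays in 7 of the 8 genes and in 25.7% of all genes. The values are averages over the cultured cells, so a higher level per cell and a larger share of cells with the RNA cannot be told apart.

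SNAR-H, the chromosome 2 copy, rose furthest. Its control arrays read 5.43 and 5.39 and its treated arrays 6.64 and 6.85. The lowest treated value thus lay 1.21 above the highest control value, while the 2 arrays of a group differed by at most 0.21. The log2 change was 1.33 ± 0.09 (limma standard error, SE), a 2.52-fold rise with a limma adjusted p of 0.00636, and it ranked 11 by rise among all genes tested. Its control values lay within 1 of the array medians, so part of the control signal may be background, and the fold may then understate the change in RNA.

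SNAR-B1 and SNAR-C1 belong to the snaR clusters of chromosome 19, and their brightest probe sets read near 10 in control cells. For SNAR-B1 the control arrays read 10.04 and 10.16 and the treated arrays 10.93 and 11.00. These groups did not overlap, and the rise was 0.87 ± 0.08 (1.83-fold, limma adjusted p = 0.0093). The other set of values under that name rose by 0.81 (control mean 10.00, treated mean 10.81). The difference between the 2 sets was not tested, and they may share probes. For SNAR-C1 the bright probe sets read 9.93 and 10.11 in control cells and 10.79 and 10.77 with verticillin A. That is a rise of 0.76 ± 0.08 (1.70-fold, limma adjusted p = 0.0133). The dimmer SNAR-C1 probe sets read 7.66 and 7.96 against 8.32 and 8.59. They too separated the groups, with a change of 0.64, but with these in place of the bright ones SNAR-C1 missed the threshold (limma adjusted p = 0.0555).

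SNAR-D, which follows the SNAR-B genes on chromosome 19 in RefSeq order, read 7.31 and 7.69 in control cells and 8.21 and 8.44 with verticillin A. The lowest treated array was 0.52 above the highest control array. Its rise of 0.82 ± 0.15 (1.77-fold, limma adjusted p = 0.0349) was close to that of SNAR-B1, but its arrays spread more widely within each group (SD 0.26 in the control and 0.17 with verticillin A, n = 2 per group).

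The remaining 4 genes read between 4.75 and 6.18 on all arrays, as SNAR-H did in control cells. These values lie nearer the array medians than those of SNAR-B1, SNAR-C1 and SNAR-D. SNAR-G2, a gene of the gonadotropin beta cluster, read 4.75 and 4.81 in control cells and 5.16 and 5.22 with verticillin A. It rose by 0.41 ± 0.07 (1.33-fold, limma adjusted p = 0.0315), and its arrays agreed within 0.06 in each group. SNAR-G1, of the same cluster, read 4.90 and 5.13 against 5.36 and 5.59. Its change of 0.46 ± 0.12 was similar in size but missed the threshold (limma adjusted p = 0.0734), with a wider spread within groups (SD 0.16 in each, n = 2). SNAR-F read 5.32 and 5.70 in control cells and 5.88 and 6.18 with verticillin A, a change of 0.52 ± 0.16 that did not pass either (limma adjusted p = 0.114). In both SNAR-G1 and SNAR-F the treated arrays lay above the control arrays.

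SNAR-I, the chromosome 3 copy, was the exception. Its control arrays read 5.64 and 5.97 and its treated arrays 5.82 and 5.97. The groups overlapped, and the change was 0.09 ± 0.13 (limma adjusted p = 0.735).

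**Figure D2:**
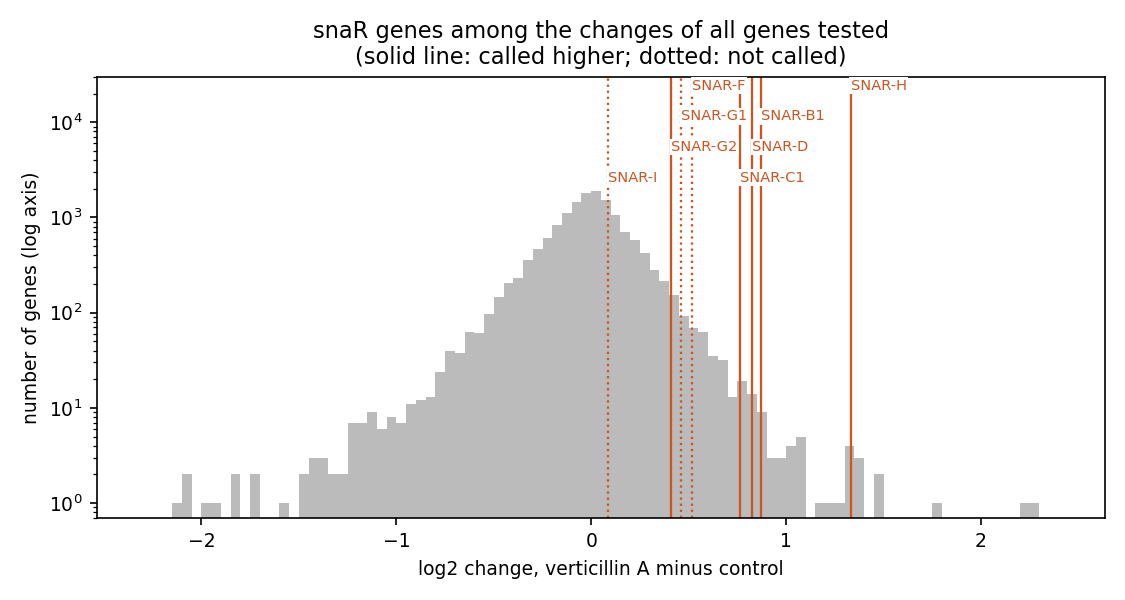
Number of genes (vertical log axis) by log2 change, verticillin A minus control (horizontal axis), for all 14884 genes tested in grey, with the 8 snaR genes as orange lines, solid where called higher and dotted where not called. All 8 lines lie right of 0, from 0.09 for SNAR-I to 1.33 for SNAR-H, and SNAR-H, SNAR-B1, SNAR-D and SNAR-C1 are among the 100 largest rises.

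The snaR values moved together within groups as well as between them. In the control, replicate 2 read above replicate 1 in 7 of the 8 genes (median difference 0.20), as it did in 61.0% of all genes (median 0.04). With verticillin A, replicate 2 was again above replicate 1 in 7 of 8 genes (median 0.18), against 53.2% of all genes (median 0.01). SNAR-D, SNAR-F and SNAR-I had the widest gaps between the control arrays, at 0.37, 0.38 and 0.33. For SNAR-I this gap was larger than the change with treatment, whereas for SNAR-H, SNAR-B1, SNAR-C1 and SNAR-G2 the change was at least 4 times the larger gap. Other small RNA genes (1102 microRNA, small Cajal body, vault, RNase and telomerase RNA genes) showed medians of 0.04 and -0.01 for the same differences. Their array medians of 4.18 to 4.27 lay below those over all probe sets, so many of them may read at background. What set the replicates apart was not tested.

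The calls rest on all 4 arrays. With control replicate 1 or control replicate 2 left out, limma called 0 snaR genes, with 6 and 7 of them at an unadjusted p under 0.05, and 0 of all genes, with 3715 and 3528 at that level. Without verticillin A replicate 1 or replicate 2 the calls fell as well, both among the snaR genes and over all genes. The log2 changes kept their sign in these fits except for SNAR-I, which was never called. That of SNAR-H ranged from 1.23 to 1.44, that of SNAR-B1 from 0.81 to 0.93 and that of SNAR-C1 from 0.68 to 0.85. SNAR-D ranged from 0.64 without control replicate 1 to 1.01 without control replicate 2, and SNAR-F from 0.33 to 0.71.

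When every probe set of the table was fitted together, unnamed ones included, limma called only 49 of 53617 (0.0914%) and 0 of the 14 snaR probe sets. There 13 of the 14, which hold only 10 different sets of values, had an unadjusted p under 0.05, as did 8805 of all probe sets (16.4%), and SNAR-H had the lowest adjusted p of them, 0.0515.

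**Figure D3:**
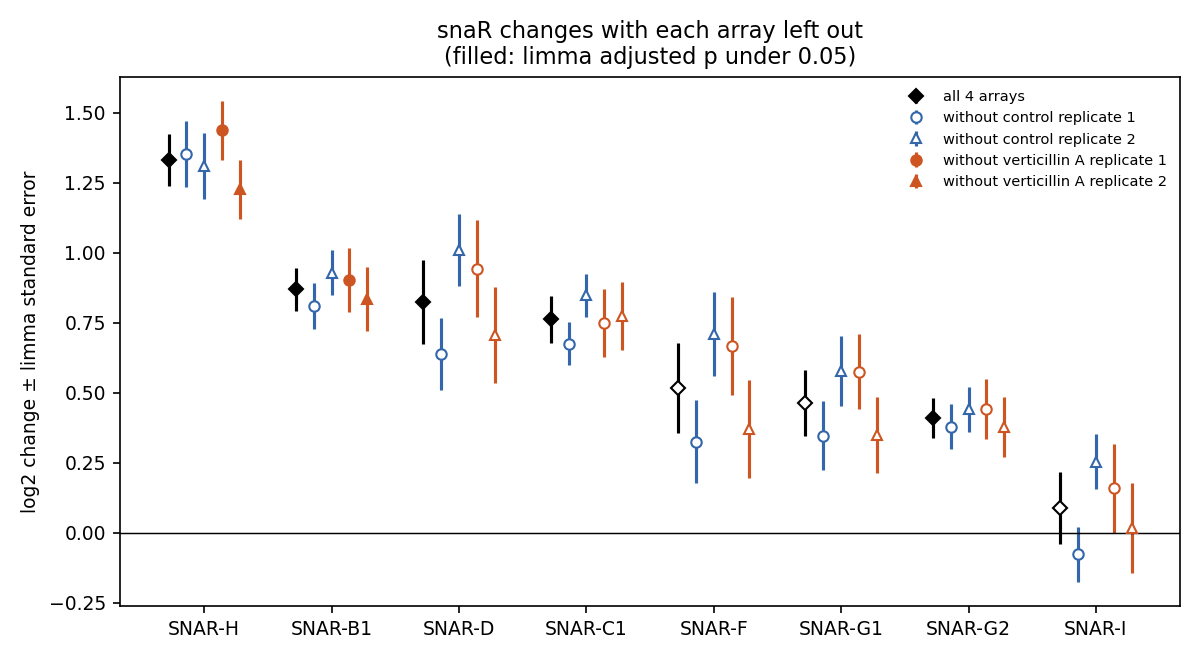
Log2 change, verticillin A minus control (vertical axis), of each snaR gene with all 4 arrays (black) and with each array left out in turn (blue for a control array, orange for a treated one); bars are limma standard errors and filled symbols passed an adjusted p of 0.05. The order from SNAR-H down to SNAR-I is broadly kept, but only SNAR-H and SNAR-B1 have filled symbols with an array left out, and none without a control array.

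The estimated changes ran from 0.09 (SNAR-I) to 1.33 (SNAR-H) across the family. SNAR-H was singled out for its largest rise in these same arrays, so its order above the other 7 genes was given beforehand. Its rise exceeded theirs by 0.46 (SNAR-B1) to 1.24 (SNAR-I). For each of these 7 pairs, the value of the other gene was subtracted from that of SNAR-H, keeping the sign. The result was higher on both treated arrays than on either control array in all 7. The same held in 22 of all 28 pairs, with the gene of larger rise taken first. A 95% interval on 2 degrees of freedom, not adjusted for the 28 pairs or the order chosen, left out 0 in 12 pairs. Taking the larger rise first makes every difference of changes positive and favours such separation. The pairs also reuse the same genes, which may share probes, so they are not separate tests. No share was computed for pairs of other genes ordered in the same way. These counts therefore cannot decide whether the snaR genes differ in their change. Among the SNAR-H pairs the interval left out 0 against SNAR-G1 (difference of changes 0.87, 0.28 to 1.46), SNAR-G2 (0.92, 0.53 to 1.31) and SNAR-I (1.24, 0.43 to 2.06). The interval included 0 against SNAR-B1 (0.46, with 0.93 as the upper bound and a lower bound just under 0), SNAR-D (0.51, -0.39 to 1.40), SNAR-C1 (0.57, -0.12 to 1.26) and SNAR-F (0.81, -0.12 to 1.75). SNAR-G1, SNAR-G2 and SNAR-I, like SNAR-F and SNAR-H itself, had control means of 4.78 to 5.81, near the array medians. SNAR-B1 and SNAR-D differed by 0.05 in their change (-0.61 to 0.70), an interval too wide to show that they moved alike. With 2 arrays against 2 an exact permutation test cannot give a two-sided p under 0.333.

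Of 6 other measured RNAs made by polymerase III, 1 rose, 1 fell and 4 did not pass, where 8.65% of all genes passed. They had a median log2 change of 0.06 against 0.64 for the snaR genes. VTRNA1-1, a vault RNA, read 9.82 and 9.38 in control cells and 10.26 and 10.38 with verticillin A, a rise of 0.72 ± 0.15 that barely passed (limma adjusted p = 0.0499) and was called in 4 of 12 alternative fits. VTRNA2-1, the non-coding RNA nc886 that binds the kinase PKR, fell from 9.67 and 9.69 to 9.38 and 9.28, a log2 change of -0.35 ± 0.07 (limma adjusted p = 0.0443, called in 5 of 12 alternative fits). RMRP, the RNA of RNase MRP, read 12.03 and 12.13 against 12.10 and 12.14, and RPPH1, the RNA of RNase P, changed by -0.06 ± 0.08. VTRNA1-2 and VTRNA1-3 changed by 0.07 ± 0.22 and 0.15 ± 0.09. The groups overlapped for RMRP, RPPH1 and VTRNA1-2, and the lowest treated array of VTRNA1-3 was level with its highest control array (both 7.79).

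Small RNAs of other classes, most of which are made by polymerase II, were called in both directions. Of 1072 microRNA genes 22 were called higher and 35 lower (5.32% called, median log2 change -0.02), and of 23 small Cajal body RNA genes 3 were higher and 0 lower (13.0% called, median -0.05), beside 8.65% of all genes. Both treated arrays lay above both control arrays in 16.6% of the 1102 other small RNA genes. The microRNA genes had medians of 4.15 to 4.25 on the 4 arrays, and the 1102 genes 4.18 to 4.27. These lie below the medians over all probe sets (4.59 to 4.62), so many of these genes may read at background, which limits them as a comparison. When the arrays were centred on the median of these genes, an alternative chosen after seeing the data, 7 snaR genes were called, with SNAR-F and SNAR-G1 added, and the calls over all genes rose from 1287 to 1626 (793 higher and 833 lower).

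Of 18 listed genes for subunits of polymerase III 8 were measured, of which 1 rose and 2 fell (median log2 change -0.09), where 8.65% of all genes were called. POLR3G and POLR3GL encode alternative forms of the same subunit, the former known from stem and tumour cells. POLR3G read 10.13 and 10.14 in control cells and 10.55 and 10.48 with verticillin A, a rise of 0.38 ± 0.07 (limma adjusted p = 0.0347). POLR3GL read 6.54 and 6.52 against 6.12 and 6.13, a fall with a log2 change of -0.40 ± 0.07 (limma adjusted p = 0.0283). The paralogs thus moved in opposite directions. POLR3B, which encodes the second largest subunit, also fell, from 9.20 and 9.28 to 8.92 and 8.88 (-0.34 ± 0.07, limma adjusted p = 0.0472). None of these 3 calls held with an array left out.

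Of 21 listed factors and regulators of polymerase III 6 were measured, and 0 passed by limma, although 4 had an unadjusted p under 0.05 (median 0.09). Over all genes 8.65% passed and 3970 of 14884 (26.7%) had an unadjusted p under 0.05. MYC, which activates polymerase III transcription, read 9.78 and 9.78 in control cells and 9.51 and 9.47 with verticillin A (-0.29 ± 0.07, limma adjusted p = 0.0591). MAF1, the repressor of polymerase III, changed by -0.28 ± 0.11 (limma adjusted p = 0.18). The activator and the repressor thus had changes of like size and sign, and neither passed.

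The list of proteins that bind double-stranded RNA, and their partners, held 12 genes, of which 6 were measured and 0 passed by limma, with 3 at an unadjusted p under 0.05 (median 0.07), beside the same 8.65% and 26.7% of all genes. DHX9, an RNA helicase, read 10.74 and 10.80 against 11.08 and 11.08 (0.31 ± 0.07, limma adjusted p = 0.0534). EIF2AK2, which encodes the kinase PKR, changed by 0.30 ± 0.07 (limma adjusted p = 0.0583). Both separated the groups without passing the threshold. Such separation was common, with all treated arrays above all control arrays in 3823 of 14884 genes (25.7%) and below them in 4331.

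**Figure D4:**
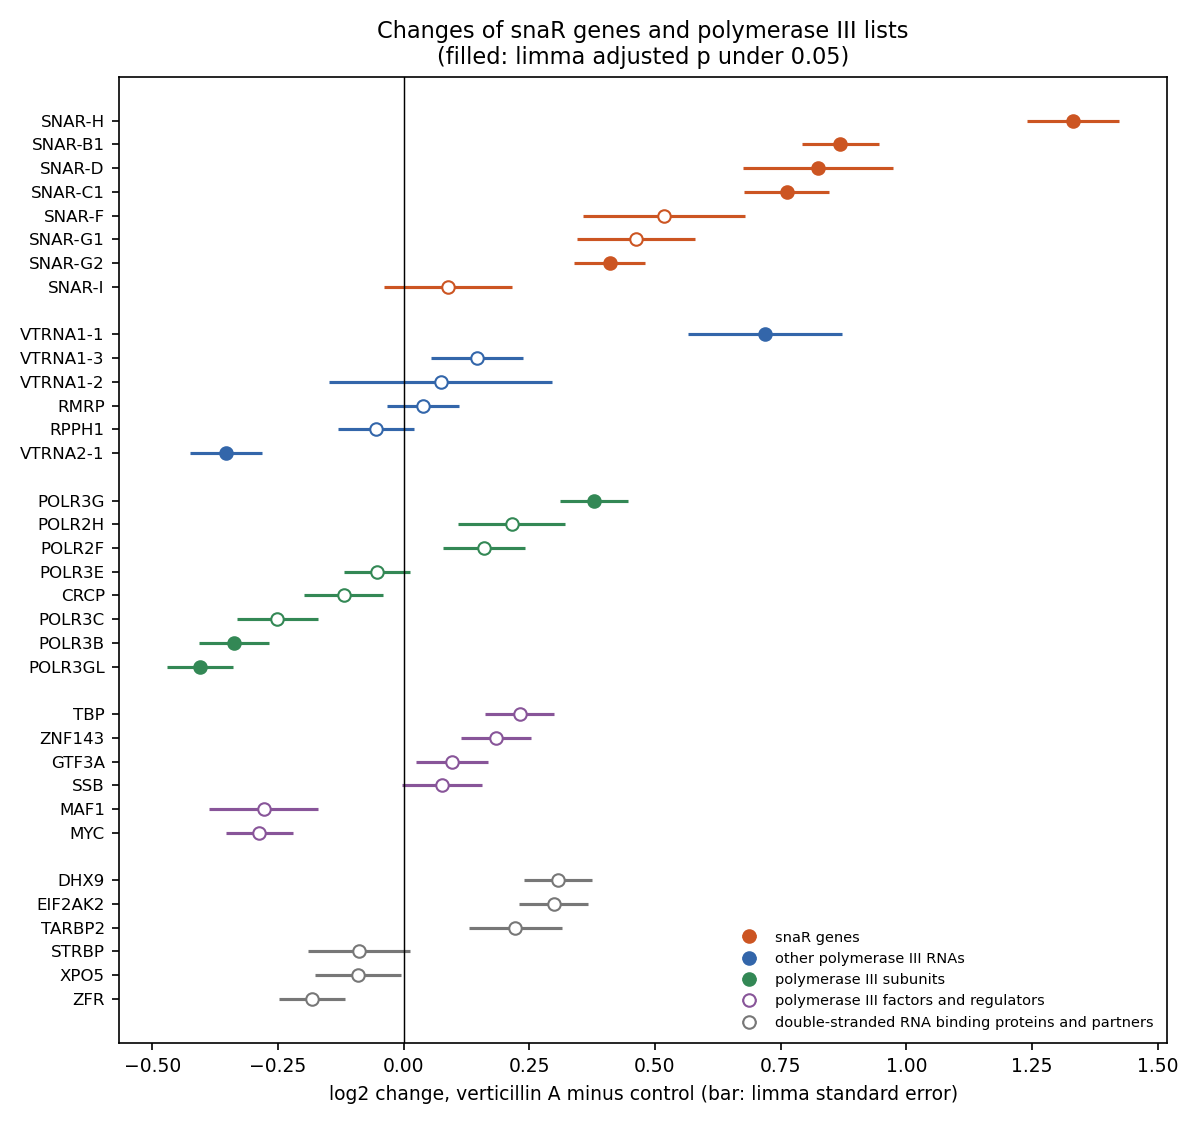
Log2 change, verticillin A minus control (horizontal axis), with its limma standard error as a bar, for the 8 snaR genes and the measured members of 4 lists; filled circles passed an adjusted p of 0.05. The snaR genes all lie right of 0, whereas the other polymerase III RNAs run from -0.35 to 0.72 and the subunit genes from -0.40 to 0.38.

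The genes beside the snaR genes are of varied kinds. In RefSeq order, the nearest measured gene on each side of the 8 snaR genes gave 12 different genes, of which 0 were called higher and 1 lower by limma, with 3 (ZNF473, SYT3 and LHB) at an unadjusted p under 0.05 (median log2 change -0.01, range -0.53 to 0.40). With 3.55% of all genes called higher and 26.7% at an unadjusted p under 0.05, these counts are near the shares over all genes. Most of the neighbours, such as CRX (control mean 3.35), IZUMO2 (3.41) and BSPH1 (3.54), lay below the array medians (4.59 to 4.62). They may read at background, which limits them as a comparison. ZNF473 (8.30), LHB (6.33) and SYT3 (4.67) lay above those medians. SNAR-C1 is the last of 10 snaR genes in a run between CRX, a photoreceptor transcription factor gene, and BSPH1, a sperm protein gene next to it, and these changed by 0.10 ± 0.07 and 0.01 ± 0.07. SNAR-D lies directly before IZUMO2, of a sperm-egg fusion family, which changed by 0.02 ± 0.12. ZNF473, a zinc finger gene, was the nearest measured gene before both SNAR-B1 and SNAR-D. It fell from 8.23 and 8.36 to 7.77 and 7.86 (-0.48 ± 0.08, limma adjusted p = 0.0293). The 2 snaR-G genes stand among the chorionic gonadotropin beta genes, with CGB2 directly after SNAR-G2 and CGB1 directly before SNAR-G1.

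Of 9 listed genes of the gonadotropin cluster and its hormone only LHB and NTF4 were measured, and they were also the nearest measured genes of both snaR-G genes. LHB, the luteinizing hormone beta chain, read 6.30 and 6.36 in control cells and 5.97 and 5.63 with verticillin A, a change of -0.53 ± 0.12 that missed the threshold (limma adjusted p = 0.0604). NTF4, a neurotrophin gene, changed by 0.18 ± 0.15. SNAR-F lies between LRRC4B and SYT3, a synaptotagmin gene, and SYT3 read 4.73 and 4.61 against 5.15 and 4.99, a change of 0.40 ± 0.09 (limma adjusted p = 0.0557). SNAR-H is flanked at a distance of 9 and 12 genes by LRRTM4 and REG3G, which changed by -0.03 ± 0.07 and -0.11 ± 0.07.

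**Figure D5:**
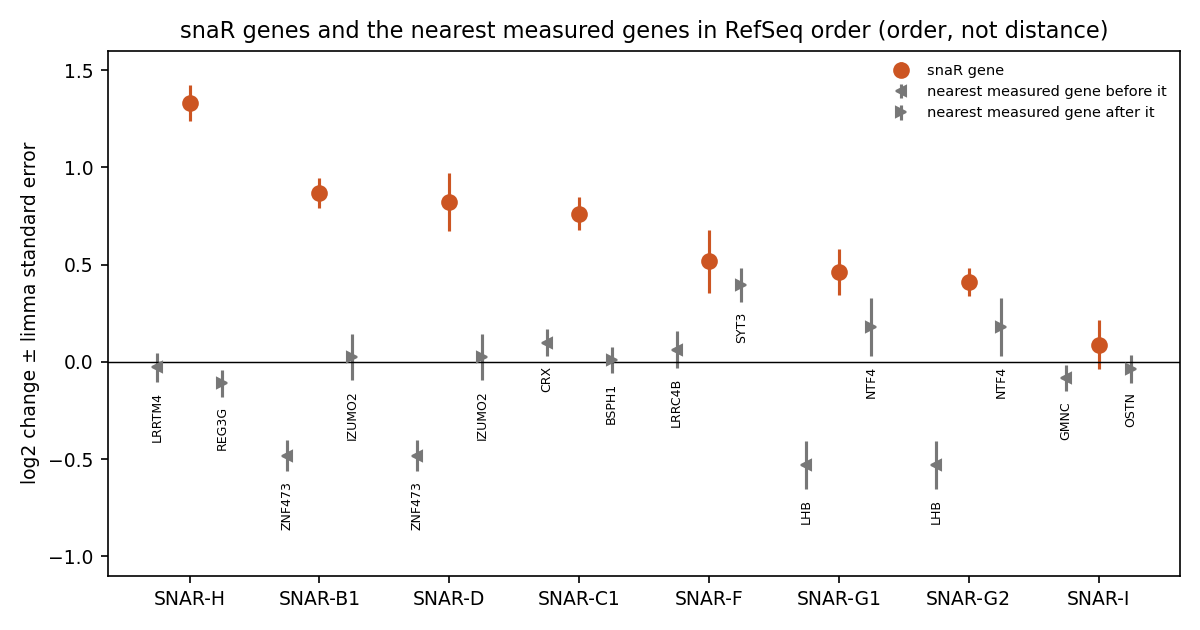
Log2 change, verticillin A minus control (vertical axis), with its limma standard error, for each snaR gene (orange) and the nearest measured genes before and after it in RefSeq gene order (grey); positions along the axis show order, not distance. The neighbours lie between -0.53 (LHB) and 0.40 (SYT3), and every snaR gene lies above both of its neighbours. Most neighbours read below the array medians in control cells and may be at background.

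By the root mean square difference of the 4 deviations from a gene's mean, the 3 genes nearest to SNAR-H over the 4 arrays were SPP1 (osteopontin, 0.074), CD68 (a lysosomal glycoprotein, 0.10) and IGFBP6 (an insulin-like growth factor binding protein, 0.10). Their log2 changes were 1.37, 1.38 and 1.39. Of the other snaR genes, SNAR-B1 was nearest to SNAR-H (0.24) and SNAR-I farthest (0.64). With 4 arrays this measure reflects little more than the size of the change.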

How the data were processed

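Biotinylated cDNA made from total RNA was read on 4 Affymetrix arrays, per the labels' protocols. The authors deposited 1 log2 value per probe set and array, made with GCRMA, per the submitters' processing notes. GCRMA equalises the arrays, so a change in total RNA would not show. As to version, annotation and build, these were not given in the sources used here, so coordinates are left out. The log2 scale was read from the values.

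Symbols were updated through gene identifiers to RefSeq (GRCh38.p14). The brightest probe set represented a gene, which left 14884 genes from 16098 named probe sets. Verticillin A was compared with control by limma 3.58.1 in R 4.3.3 (lmFit, eBayes, no filter; 2 residual and 3.43 prior degrees of freedom), with Benjamini-Hochberg adjustment over all genes and a threshold of 0.05. The code was tested on simulated data. Named genes were all snaR genes; per list, up to 4 called members or the 2 with the largest change; the nearest measured neighbours; and the 3 genes nearest in pattern to the snaR gene with the largest change. Other genes of the lists (all 6 polymerase III RNAs, and marker genes) were named beyond that rule. An item withheld from the lists is not reported here. Members and lists were chosen with earlier results of these data known. The 12 alternatives covered scaling, probe sets, a filter, the variance prior, the replicate number and each array left out. The smallest two-sided exact permutation p for 2 against 2 arrays is 0.333.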

Additional observations from a re-analysis of the deposited data

How the results depend on the processing

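The count of 5 snaR genes called higher stayed at 5 with the arrays centred, with probe sets averaged, without the dimmest 25% of genes and with a trended, robust prior in limma. It was 4 with the dimmest probe set of each gene and 7 with centring on other small RNA genes, both chosen after seeing the data. With every probe set of the table fitted it was 0 (7 genes at an unadjusted p under 0.05), and with an array left out 0 to 2, with median log2 changes of 0.51 to 0.78. With the replicate number as a block it was again 5, with SNAR-F in (limma adjusted p = 0.0472) and SNAR-G2 out (0.06). Shared replicate numbers are not stated to mark pairs, so the main fit has no block. Same-numbered arrays deviated from their group means with a correlation of only 0.0124 over all genes. That value does not settle pairing for the snaR genes. There the block lowered the limma standard error of SNAR-D (0.149 to 0.077) and SNAR-F (0.161 to 0.073). It did not lower that of SNAR-H (0.092 to 0.093) or SNAR-C1 (0.084 to 0.085). Over the 12 alternatives SNAR-H and SNAR-B1 were called in 9 each, SNAR-D in 7, SNAR-C1 and SNAR-G2 in 6 each, SNAR-F in 2, SNAR-G1 in 1 and SNAR-I in 0. Apart from SNAR-I (-0.08 without control replicate 1) no snaR gene changed sign in them. Over all genes the 1287 calls (528 higher, 759 lower) became 592 with the block, 2414 with the trended prior, 18 among these genes with every probe set fitted, 0 to 153 with an array left out, 750 higher and 668 lower with the arrays centred, and 793 higher and 833 lower with centring on other small RNA genes. The 5 calls among the other polymerase III RNAs, subunits, factors, double-stranded RNA binding proteins and gonadotropin genes became 0 with the block, with every probe set fitted and with any array left out, 3 with arrays centred or the dimmest probe sets, 9 without the dimmest genes and 12 with the trended prior. Over all genes the calls were 1665 of 11163 without the dimmest genes and 1172 of 14884 with the dimmest probe sets. The cause of these differences was not tested. Signal near the array medians limits SNAR-F, SNAR-G1, SNAR-G2, SNAR-H and SNAR-I.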
